A study of Mus musculus with 4 samples.

Results

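The RNAs described here are those read by array probes that carry a chromosome interval and a strand in place of a gene name, such as chr15:32167516-32174417 on the reverse strand (the letter at the end of each name, F or R, is read here as forward or reverse). Of 55681 non-control probes on the array, 16194 were named by position, and 3123 of these (19.3%) were kept. The kept probes were chosen by their own processed signal, which had to exceed 400 and lie well above background on at least 1 of the 4 arrays, with no spot marked as an outlier. Another 24 probes were bright enough but carried an outlier mark and were left out. The 3123 probes fell in 1910 of 4610 named intervals. Of these intervals 1224 held 1 kept probe and 686 held 2 or more, up to 10. The intervals ran from 90 to 533972 bp, with a median of 13074.5 bp, on mouse build mm9. The forward strand had 1555 probes, the reverse strand 1563, and 5 had no strand.

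The cells were 3T3L1 preadipocytes, an established clonal fibroblast line from mouse embryos that turns into fat cells when given a hormone mixture at confluence. The study compared cells labelled lamp2a- with control cells, each at confluence (day 0) and after the mixture (day 2), with 1 array for each of the 4 groups. Untreated cells at day 0 were confluent and had no mixture, and induced cells at day 2 had 160 nM insulin, 250 nM dexamethasone and 0.5 mM 1-methyl-3-isobutylxanthine, all in medium with 10% serum. Lamp2a is the receptor that brings proteins to the lysosome in chaperone-mediated autophagy, and the labels do not say how it was knocked down, from how many clones, or what the control cells received.

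Long intergenic noncoding RNAs are made by the polymerase that also makes messenger RNA, but they carry no long open reading frame and lie between annotated protein-coding genes. Many were first mapped as stretches of chromatin with an active promoter mark at one end and a mark of transcription along the body. Array designers then placed several probes along each such stretch, often on both strands. An interval of this kind can hold a noncoding RNA, an unannotated extension of a neighbouring gene, or sequence that is not transcribed. Some well-studied long noncoding RNAs act in the nucleus on chromatin or splicing, others act in the cytoplasm, and several take part in fat cell differentiation. The array files pair these intervals with no gene. No mm9 annotation was used here, so whether an interval lies between genes or inside one was not checked, and probe sequences were not used here.

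The median signal of the kept probes was 553 in untreated control, 834 in untreated knockdown, 641 in induced control and 570.0 in induced knockdown cells. The signal was over 400 on all 4 arrays for 1665 probes and on a single array for 636. Of the 636, 480 passed on the untreated knockdown array, 94 on the untreated control array, 37 on the induced control array and 25 on the induced knockdown array. A probe that passed on a single array had to differ between arrays to some degree. At the threshold, the 3 faintest kept probes peaked at 400.03, 400.06 and 400.07, and the 3 brightest probes below it at 399.47, 399.48 and 399.78.

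Each group had 1 array, so no spread between cultures could be measured and no difference was tested. A difference was called when signals, each divided by the 75th percentile of its own array, were at least 2-fold apart. Because the divisors were 1580 and 1652 for the untreated control and knockdown arrays and 1228 and 1096 for the induced ones, a fold given here differs somewhat from the ratio of the printed signals. The fold of an interval is the median of its probes' own folds, not the ratio of the median signals, and a median past 2-fold can include a probe under it. Spots of 222 probes that are printed 10 times and reach the brightness of the kept probes differed by a median SD of 0.04 to 0.07 in the log2 ratio. For 113 dimmer probes printed 10 times the median SD was 0.24 to 0.46. Both measure spotting and scanning error alone. A kept probe can be dim on some of the arrays, and its spot error there was not measured separately. The untreated control array lay on one slide and the other 3 on a second slide. Control induction and the untreated knockdown comparison therefore crossed slides, and for them slide and group cannot be told apart. Knockdown induction and the induced knockdown comparison stayed within a slide. The scanner software's detrending was applied to the other arrays but not to untreated knockdown. In knockdown induction and in the untreated knockdown comparison, detrending and group therefore cannot be told apart.

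The targeted gene was lower on both knockdown arrays at 1 of its 2 probes. That Lamp2 probe read 31300 in untreated and 14116 in induced control cells, against 7931 and 3575 in knockdown cells, a difference of 4.13-fold and 3.52-fold. The other Lamp2 probe, on another transcript of the gene, read 122000 and 84004 in control and 99348 and 69061 in knockdown cells, 1.28-fold and 1.09-fold lower. All 11 preadipocyte and fibroblast genes of a marker list read over 400, and none of 4 epithelial genes did. Of 5 macrophage genes 4 were on the array and 2 read over 400. Their summed signal was 25938 in untreated control, 49932 in untreated knockdown, 32784 in induced control and 40680 in induced knockdown cells, most of it from Itgam (22500, 45274, 29518 and 38578). In induced cells Itgam was 1.47-fold higher with knockdown while Csf1r, at 3031 in control and 1911 in knockdown cells, was 1.41-fold lower, and Ptprc and Adgre1 were under 200 on every array. Of 4 endothelial and 4 skeletal muscle genes, 2 each read over 400. Of the muscle genes Acta1 read 5030, 1227, 567 and 42.9, in the order given for Itgam. The other 3 went the other way with knockdown in untreated cells and in control induction. In that order Myog read 63.0, 341, 210 and 211, Myod1 184, 598, 421 and 437, and Ckm 22.4, 135, 89.8 and 112. Epithelial Krt8 read 375 in untreated knockdown cells and at most 21.8 on the other arrays. The part of these signals in the differences between knockdown and control cells was not tested.

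Far more kept probes were higher than lower in both comparisons against the untreated control array. In control cells, 995 of 3123 probes were at least 2-fold higher after induction and 131 at least 2-fold lower. Over all non-control probes of the array these shares were 26.7% and 5.91%, and over the 19161 probes without a position name that passed the same signal threshold they were 9.74% and 7.77%. The latter are brighter as a group, with 2644 of 19157 compared at a mean signal under 500, against 1166 of the 3123 kept probes, so these shares are not at equal brightness. Among untreated cells, 901 of 3123 probes were higher with knockdown and 96 lower, against 23.6% and 3.77% of all probes and 8.25% and 3.59% of the bright probes without a position name. The median log2 ratio of the kept probes was 0.62 for control induction and 0.51 for untreated knockdown. Since the signals chose the probes, nothing is read from these counts beyond their size. Quantile normalisation put 75.3% and cyclic loess 70.5% of the called probes on the higher side in control induction, in place of 88.4%. For untreated knockdown these shares were 78.2% and 74.8%, in place of 90.4%.

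Within the slide the kept probes were about evenly split. In knockdown cells 147 of 3111 probes were higher after induction and 127 lower, against 4.34% and 6.09% of all probes and 5.69% and 9.35% of the bright probes without a position name. Without the software's detrending 41.5% of the called probes were higher there, in place of 53.6%. Among induced cells, 63 of 3113 probes were higher with knockdown and 80 lower, against 2.24% and 3.03% of all probes and 2.59% and 3.84% of the bright ones. The median log2 ratios were 0.03 and -0.01.

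The excess of higher calls across slides moved with dimness. Among kept probes with a mean signal under 500, 49.7% were at least 2-fold higher in control induction and 47.3% in untreated knockdown. Among those with a mean signal over 5000, 5.94% and 3.75% were. For the bright probes without a position name the same shares went from 29.6% to 4.12% and from 30.7% to 1.74%. The same signals had chosen the probes. Among kept probes over the signal threshold on only 1 array, 48.0% were higher in control induction and 50.9% in untreated knockdown. Among those over it on all 4 arrays, 13.8% and 10.8% were. How much of the trend with dimness comes from the choice of probes was not tested. Of all position-named spots 56.0% were well above background on the untreated control array, against 72.9% to 85.4% on the other 3. The kept probes were brightest on the untreated knockdown array in 2060 cases and on the untreated control array in 562. The regions below are therefore described by several probes of an interval, with the comparison within the slide given beside the one across slides.

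**Figure D1:**
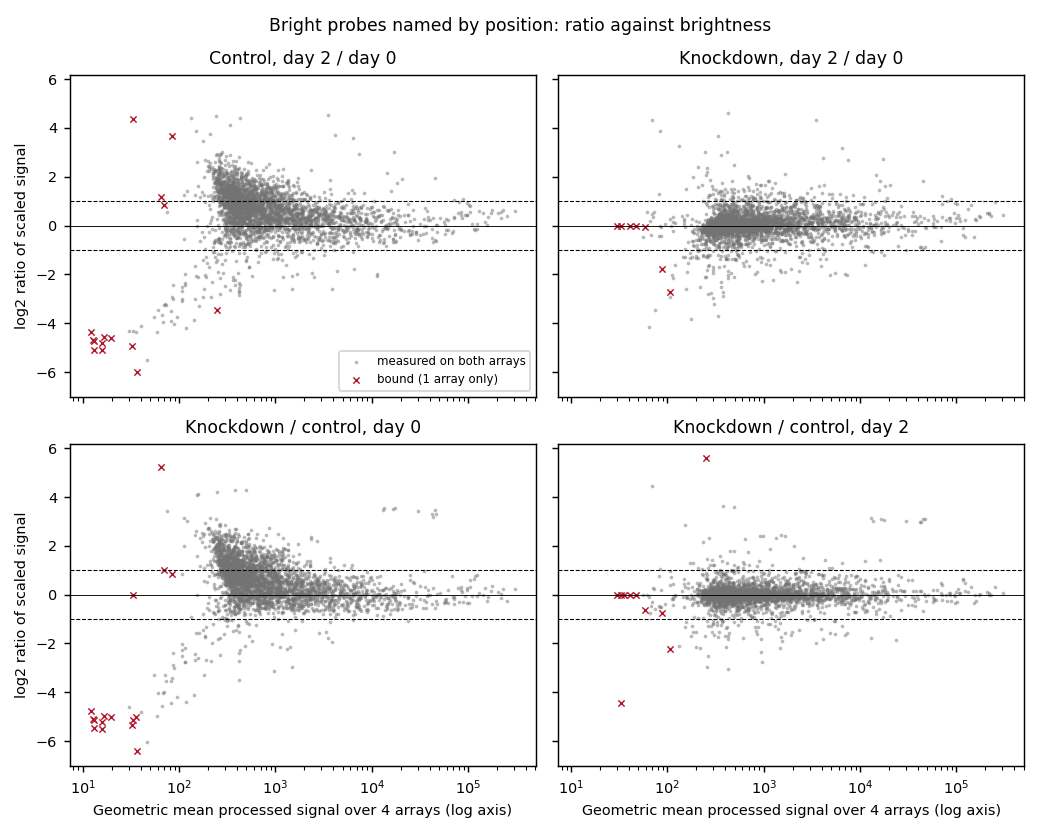
Log2 ratio of scaled signal (vertical axis) against the geometric mean processed signal over the 4 arrays (horizontal axis, log scale) for the kept probes in each of the 4 comparisons; crosses are bounds where only 1 array was well above background, and dashed lines mark 2-fold. In both left panels, which use the untreated control array, the kept probes centre above 0 (medians 0.62 and 0.51), most of all the dim ones, while both right panels centre near 0 (0.03 and -0.01).

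**Figure D2:**
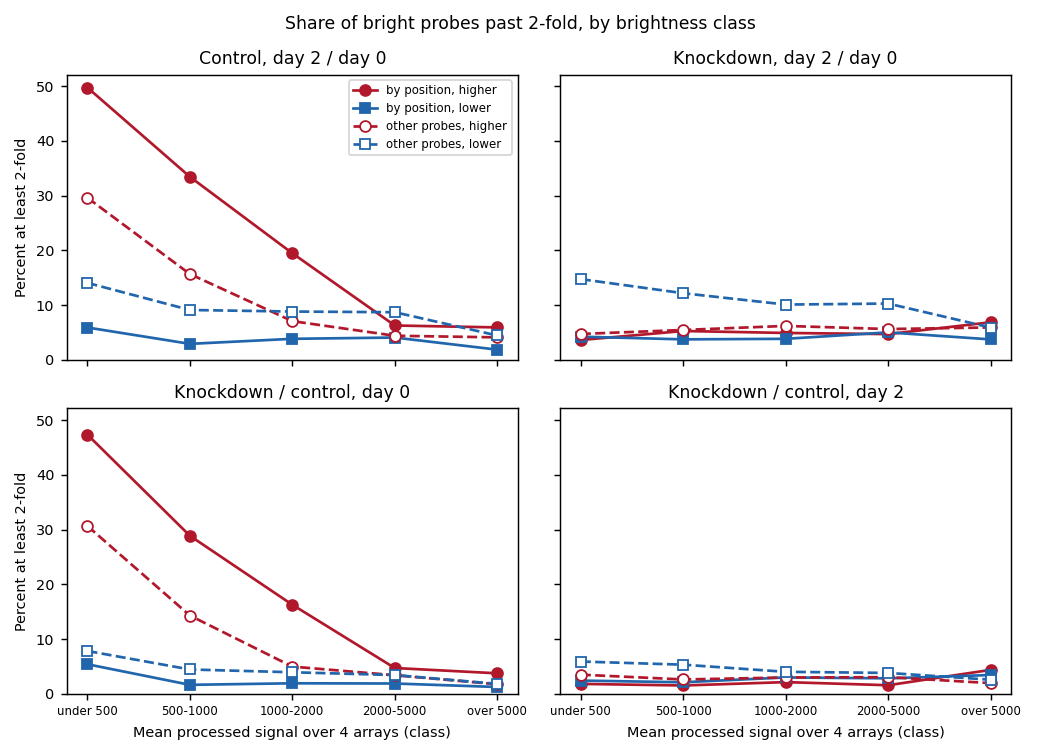
Percent of probes at least 2-fold higher (circles) or lower (squares) in 5 classes of mean processed signal over the 4 arrays, for kept probes named by position (filled, solid lines) and probes without a position name that passed the same signal threshold (open, dashed lines). The share of higher probes named by position goes from 49.7% in the dimmest to 5.94% in the brightest class in control induction and from 47.3% to 3.75% in untreated knockdown.

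Probes of one interval served as a check on each other, although they share the RNA and the arrays and are no replicates of a condition. In the 324 intervals with 3 or more kept probes the SD of the log2 ratio among them had a median of 0.22 in both comparisons across slides, 0.16 in knockdown induction and 0.11 in induced knockdown. Over intervals with 2 or more kept probes, the ratios of a pair of probes correlated with Pearson's r of 0.47 and 0.42 across slides (686 intervals each) and 0.68 and 0.76 within the slide (684 and 685 intervals). These coefficients run across intervals of the same arrays and are descriptions. All kept probes of an interval were at least 2-fold higher in 85 intervals for control induction, 83 for untreated knockdown, 17 for knockdown induction and 8 for induced knockdown. All were at least 2-fold lower in 11, 7, 17 and 15 intervals. Of the 85 and 83 intervals, 69 and 67 had a median signal under 400 on the untreated control array. After quantile normalisation 25 and 23 of the 85 and 83 still agreed. Fainter probes of an interval did not enter these counts, and no such share was made for other probes. Across slides 49.7% and 47.3% of kept probes with a mean signal under 500 were higher, so agreement between dim probes there is weak support. The intervals named below were among the 6 with the largest median in a comparison and direction, or were chosen after their values had been seen.

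A bright RNA from the reverse strand of chromosome 15 was far higher in knockdown cells in both states. At chr15:32167516-32174417 the 5 probes had a median signal of 6140 in untreated control against 74209.9 in untreated knockdown cells, and of 3199.7 against 22974 after induction. The scaled signal was 11.7-fold higher with knockdown before and 8.22-fold after induction. At every one of these probes both knockdown arrays lay above both control arrays. A second named interval, chr15:32167516-32174427, covers the same stretch, so its 5 probes are a further reading of the same place. They had medians of 19500 against 203082 before and 10496 against 73987 after induction, 10.8-fold and 8.15-fold higher. The log2 ratios of the probes of both intervals stayed between 3.16 and 4.06 before and between 2.86 and 3.14 after induction. The medians of the first interval were lower after induction, by 1.55-fold in control and 2.06-fold in knockdown cells.

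Further along chromosome 15, both strands of an overlapping pair of intervals were also higher in knockdown cells. For chr15:32705156-32729116 on the reverse strand the kept probes had medians of 233 against 1253 before and 346 against 431 after induction, 5.15-fold and 1.52-fold higher with knockdown. For chr15:32708654-32725622 on the forward strand they had 126 against 601 before and 93.5 against 189 after induction, 4.55-fold and 2.29-fold higher. The difference was thus past 2-fold after induction on the forward strand only. With normexp background correction that difference was under 2-fold too, at a log2 ratio of 0.89.

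Among intervals whose kept probes agreed, the largest median fold between knockdown and control cells, both before and after induction, was at chr18:70400082-70404236 on the reverse strand. Its 3 probes read 239, 220 and 234 in untreated control and 4911, 4252 and 4823 in untreated knockdown cells. After induction they read 40.1, 6.30 and 69.1 in control and 440.4, 664 and 745 in knockdown cells. The median difference was 19.6-fold before and 12.3-fold after induction, where 1 probe was not well above background in control cells and gives a bound of at least 48.1-fold. With normexp background correction the median log2 ratio after induction was 2.76, in place of 3.62. This RNA was lower after induction in both kinds of cells, by a median of 4.63-fold in control and 4.29-fold in knockdown cells. Each of the 3 probes was highest in untreated knockdown and lowest in induced control cells.

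Intervals on chromosome 3 differed with knockdown by more after induction than before. At chr3:146629425-146649125 on the forward strand the 4 probes had a median of 945 against 2472 in untreated and 388 against 1785 in induced control and knockdown cells. The shorter interval chr3:146645022-146646977 lies inside it on the same strand, and its 3 probes had medians of 1340 against 3499.5 and 479 against 2324. The differences were 2.38-fold and 2.50-fold before induction and 4.92-fold and 5.28-fold after it. Control cells had 1.88-fold and 2.03-fold less of this RNA after induction, while the knockdown arrays were 1.04-fold apart at both intervals.

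A few other intervals were higher with knockdown in 1 or both states. On chr10:120058696-120076196, reverse strand, the 2 probes read 318 and 221 in untreated control, 309 and 309 in untreated knockdown, 111 and 103 in induced control and 495 and 416 in induced knockdown cells. Knockdown cells were thus 4.74-fold higher after induction and 1.11-fold higher before it. At chr12:50490638-50508093 on the forward strand the medians were 1685 against 8484 before and 1263 against 2252 after induction, 4.84-fold and 2.00-fold higher with knockdown. One of its 2 kept probes was just under 2-fold after induction, so the interval is not among the 8 agreeing ones there. The 3 probes of chr4:88583425-88584070 on the reverse strand had medians of 299 against 1057 before and 491 against 1483 after induction, 3.32-fold and 3.38-fold higher, with 1 probe just under 2-fold after induction (log2 ratio 0.96). At chr19:46422690-46423478 on the reverse strand they had 183 against 369 and 349 against 812, 2.37-fold and 2.30-fold higher, with 1 probe just under 2-fold before induction (log2 ratio 0.95).

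**Figure D3:**
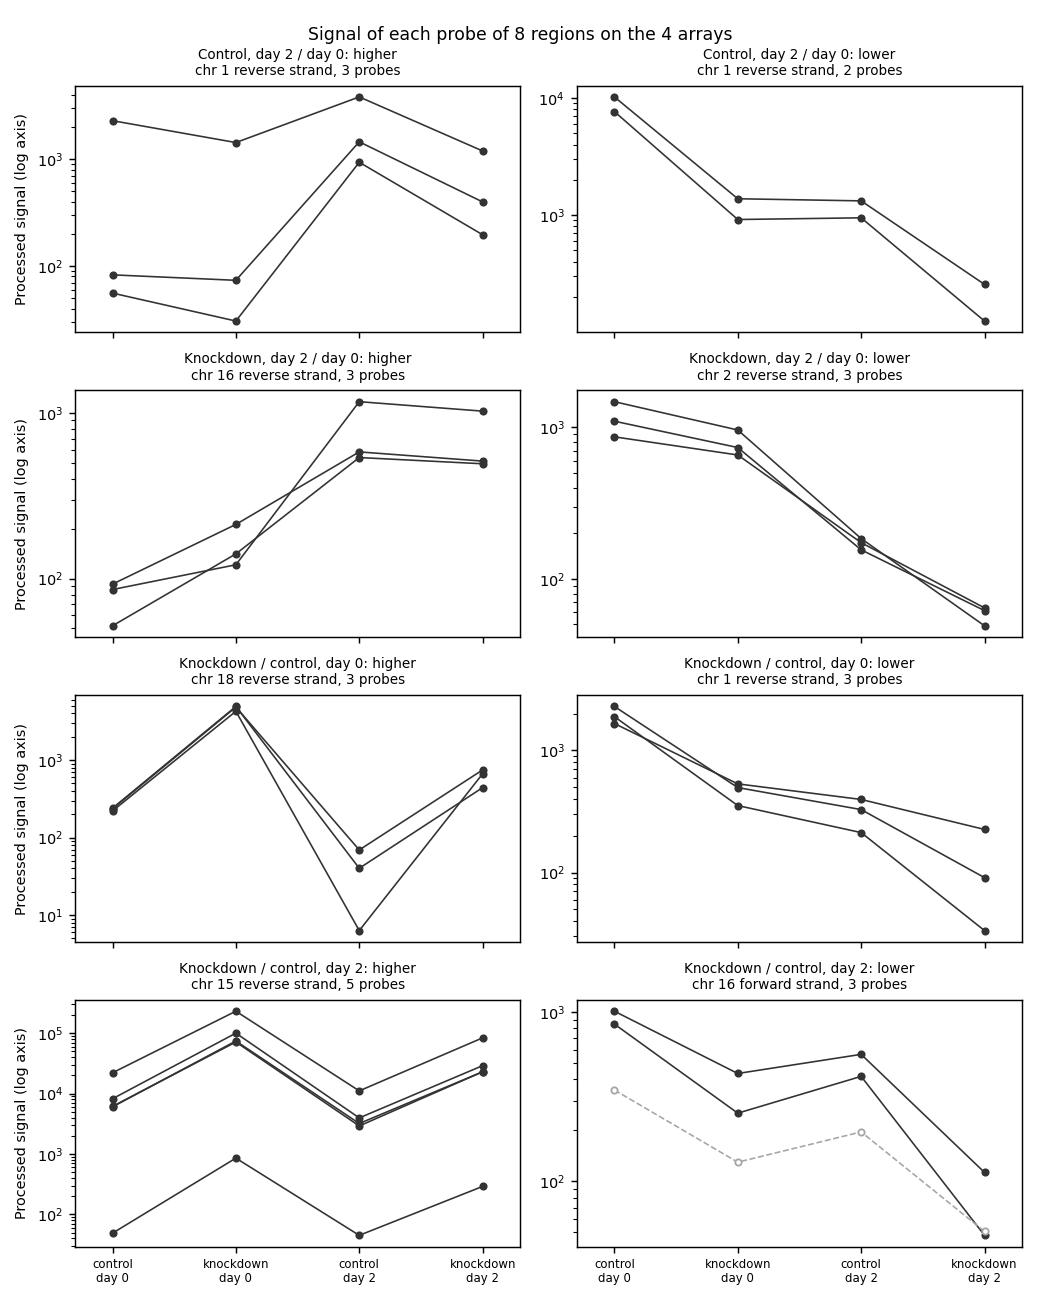
Processed signal (vertical axis, log scale) of every unmarked probe of 8 intervals on the 4 arrays (horizontal axis), one interval for each comparison and direction; filled points with solid lines are kept probes, open points with dashed lines fainter probes of the same interval. Most probes of an interval run nearly in parallel, as on chromosome 15, where the knockdown arrays are 11.7-fold above control by the median at day 0 and 8.22-fold at day 2. All 8 intervals came from those whose kept probes all passed 2-fold the same way. A similar course of those probes follows in part from that choice. The upper probe of the first panel, on chromosome 1, differs less than the other two.

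Several intervals that were lower with knockdown lay close together on chromosome 1. The 2 probes of chr1:85036677-85038530 on the reverse strand read 7650 and 10200 in untreated control, 917 and 1379 in untreated knockdown, 948 and 1323 in induced control and 125 and 256 in induced knockdown cells. Knockdown cells had 8.21-fold less before and 5.59-fold less after induction by the median, and the signal was also lower after induction, by 6.13-fold in control and 4.17-fold in knockdown cells. Untreated control cells were thus highest and induced knockdown cells lowest. For chr1:85304494-85305390 on the same strand the 3 probes had medians of 1890 against 496 before and 328 against 90.9 after induction. This was 4.83-fold and 3.22-fold lower with knockdown, although 1 of the 3 probes differed 1.57-fold after induction, so the interval is not among the agreeing ones there. The only probe of chr1:84961943-84962737 on the forward strand read 3690 against 344 before and 483 against 51.9 after induction, 11.2-fold and 8.31-fold lower with knockdown.

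Between these, the forward-strand interval chr1:85117750-85129200 was lower with knockdown and within 2-fold with induction. Its 3 kept probes had medians of 2880 against 677 before and 1416 against 545 after induction, 4.45-fold and 2.32-fold lower in knockdown cells. From day 0 to day 2 it was 1.66-fold lower in control and 1.16-fold higher in knockdown cells. Its 2 fainter probes, at 32.4 to 63.9 on every array, did not follow the kept ones. The 4 intervals lie within 500 kb.

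Intervals on other chromosomes were lower with knockdown both before and after induction. On chr6:3283191-3284581, reverse strand, the 2 probes read 1160 and 695 in untreated control, 309 and 181 in untreated knockdown, and 183 and 95.6 in induced control cells. In induced knockdown cells one read 35.9 and the other was not well above background. That was 3.97-fold lower before induction by the median. After induction the measured probe was 4.55-fold lower and the other at least 4.64-fold, and with normexp background correction the median log2 ratio there was -1.02. For chr16:23534663-23535172 on the forward strand the 2 kept probes had medians of 929 against 343 before and 489 against 80.4 after induction, 2.93-fold and 5.86-fold lower, the latter at a log2 ratio of -1.76 with normexp. A fainter probe of that interval, at 346 in untreated control and 50.6 in induced knockdown cells, had the same order of arrays. The 5 probes of chr3:96074625-96086375 on the forward strand had medians of 2170 against 856 and 2754 against 1367, 2.85-fold and 1.92-fold lower, and each of them was lower with knockdown in both states.

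A further set of intervals was lower with knockdown after induction, with a smaller difference before it. The 5 kept probes of chr7:91558475-91733625 on the forward strand had medians of 11500 against 9328 in untreated cells and 5493 against 1614 in induced cells. The difference was 1.32-fold before and 3.00-fold after induction, where the 5 log2 ratios lay between -1.64 and -1.42. At chr10:81680941-81704964 on the forward strand the medians were 18000 against 10275 before and 24210.3 against 6344 after induction, 1.83-fold and 3.65-fold lower. For chr4:149445201-149445902 on the forward strand they were 1580 against 1466 and 899 against 359, 1.13-fold and 3.05-fold lower. Induced knockdown cells were lowest at each of these intervals.

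Similar values were found on chromosomes 16, X and 11. At chr16:77670599-77691642 on the forward strand the medians were 1660 against 1009 before and 919.7 against 237 after induction, and the latter pair was 3.45-fold apart. At chrX:50400250-50410825 on the reverse strand they were 1290 against 1039.9 and 1061 against 336, 2.94-fold lower with knockdown after induction. For chr11:16831925-16851121 on the reverse strand the untreated order was the other way, with 953 against 1757, while induced cells had 842 against 299. There knockdown cells were 1.49-fold higher before and 2.75-fold lower after induction. Whether the knockdown differences before and after induction themselves differ could not be tested with 1 array per group.

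Overlapping intervals on the reverse strand of chromosome 1 were higher after induction in both kinds of cells, with more of the RNA in control cells. The 3 probes of chr1:175653557-175671940 read 1610, 3090 and 2120 in untreated and 29140.4, 29266 and 21335 in induced control cells. In knockdown cells they read 495, 1792 and 1171 before and 6542, 10624 and 5342 after induction. The median was 12.9-fold higher after induction in control and 8.94-fold in knockdown cells, and knockdown cells were 1.89-fold lower before and 3.56-fold lower after it. At each probe both induced arrays lay above both untreated ones. The overlapping interval chr1:175654606-175672031 had medians of 9860 and 6889.6 in untreated and 37667 and 20253 in induced control and knockdown cells, 4.48-fold and 4.16-fold higher. At chr1:175660642-175671878, which also overlaps, the probes were less alike. Its 2 faint probes read 82.8 and 55.9 in untreated and 1453 and 935 in induced control cells, and the other read 2290 and 3819.9, which is 2.15-fold higher.

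A locus on chromosome 16 was higher after induction on both strands. The 3 probes of chr16:84702353-84710928 on the reverse strand had medians of 85.9 and 141 in untreated and 582 and 512 in induced control and knockdown cells. Within it, the only probe of chr16:84708695-84708806 on the forward strand read 102 and 111 before and 1687 and 1792 after induction. The forward-strand probe was 21.3-fold higher in control and 24.4-fold in knockdown cells, and the reverse-strand probes 13.3-fold and 5.28-fold, the former at a log2 ratio of 2.61 with normexp. After induction the knockdown and control arrays were 1.01-fold apart on the reverse strand and 1.19-fold on the forward strand. The kept probe of the forward strand gives a single reading, with no other probe in its interval to set beside it.

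Other intervals were higher after induction in both kinds of cells. For chr16:23992037-24001037 on the forward strand the 4 kept probes had medians of 346 and 367 before and 990 and 974 after induction, 3.28-fold higher in control and 3.72-fold in knockdown cells. For chr19:46419916-46421753 on the forward strand the 3 probes had 346 and 470.2 before and 1041 and 1279 after induction, 3.46-fold and 4.25-fold higher. At both of these, knockdown and control cells were within 2-fold of each other in both states. The neighbouring reverse-strand interval chr19:46422690-46423478, which was also higher with knockdown, was 2.83-fold and 2.64-fold higher after induction, the first under 2-fold with quantile or cyclic loess normalisation. On the X chromosome, chrX:54627918-54638568 on the reverse strand had medians of 855 and 743 before and 1422 and 1225 after induction, 2.37-fold and 2.48-fold higher. Probes of an interval did not always agree. One probe of chr17:80133213-80144417 on the forward strand read 299 and 109.6 in untreated and 1616 and 583 in induced control and knockdown cells, 6.95-fold and 8.02-fold higher, another followed it, and the remaining one was lower after induction in both kinds of cells.

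In knockdown cells some intervals passed 2-fold after induction where control cells were near or below it. The 5 kept probes of chr1:138528250-138538250 on the forward strand had medians of 455 and 543 in untreated and 529 and 1009 in induced control and knockdown cells. They were 1.40-fold higher in control and 2.80-fold higher in knockdown cells, and 4 of the 5 fainter probes of the interval were also past 2-fold in knockdown cells. At chr19:5834117-5835940 on the reverse strand the 3 probes had medians of 3940 and 4411 before and 3873 and 7265 after induction, 1.18-fold and 2.42-fold higher. At chr17:3213918-3257944 on the forward strand the medians were 738 and 860 before and 1209 and 2027 after induction, 2.11-fold and 3.55-fold higher. Induced knockdown cells had the highest reading at all 3 intervals, and the difference between the time courses was not tested.

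Adjoining intervals on chromosome 2 were lower after induction in both kinds of cells. At chr2:128137419-128141735 on the reverse strand the 3 probes had medians of 1100 and 737 in untreated and 173 and 61.7 in induced control and knockdown cells. At chr2:128142035-128142481, next to it on the same strand, the medians were 1210 and 771 before and 199.9 and 85.9 after induction. The first interval was 5.50-fold lower in control and 7.92-fold lower in knockdown cells, the second 5.33-fold and 6.57-fold. Induced knockdown cells were 2.41-fold and 2.12-fold below induced control cells, and with normexp background correction both of these were under 2-fold, at log2 ratios of -0.66 and -0.69. The untreated arrays lay above the induced ones at every probe of the first interval.

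Further intervals that were lower after induction lay on chromosomes 5, 13 and 6. For chr5:92556322-92558910 on the forward strand the 3 probes had medians of 665 and 1184 before and 128 and 158 after induction, 4.27-fold lower in control and 4.98-fold lower in knockdown cells. One of these probes, at a log2 ratio of -0.63, was under 2-fold in control cells, so the interval is not among the 11 agreeing ones there. For chr13:34027900-34052050 on the forward strand the medians were 2230 and 1624 before and 699 and 517 after induction, 2.81-fold and 2.55-fold lower. The knockdown and control arrays were within 2-fold of each other in both states at these intervals. At chr6:57583950-57624216 on the forward strand the medians were 3215 and 2149.8 before and 591 and 795 after induction, 4.24-fold lower in control and 1.78-fold lower in knockdown cells.

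The time courses of control and knockdown cells share no array, and neither do the knockdown comparisons before and after induction. Of the 995 probes higher in control induction, 77 (7.74%) were also higher in knockdown induction, where they made up 52.4% of 147. For lower probes the shared number was 44, which is 33.6% of 131 and 34.6% of 127. In knockdown against control cells, 31 probes were higher both before and after induction, 3.44% of 901 and 49.2% of 63, and 23 were lower in both, 24.0% of 96 and 28.8% of 80. Over all non-control probes the shares were 7.90% and 46.6% for higher and 48.7% and 45.3% for lower in the time courses, and 2.92% and 32.2% for higher and 23.7% and 31.1% for lower with knockdown. Over the bright probes without a position name they were 29.4% and 50.4%, 67.5% and 56.1%, 10.9% and 34.7%, and 45.4% and 42.5%, in the same order. Counted as intervals whose kept probes all agreed, 9 were higher and 6 lower in both time courses. With knockdown, 6 intervals were higher and 4 lower in both states.

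**Figure D4:**
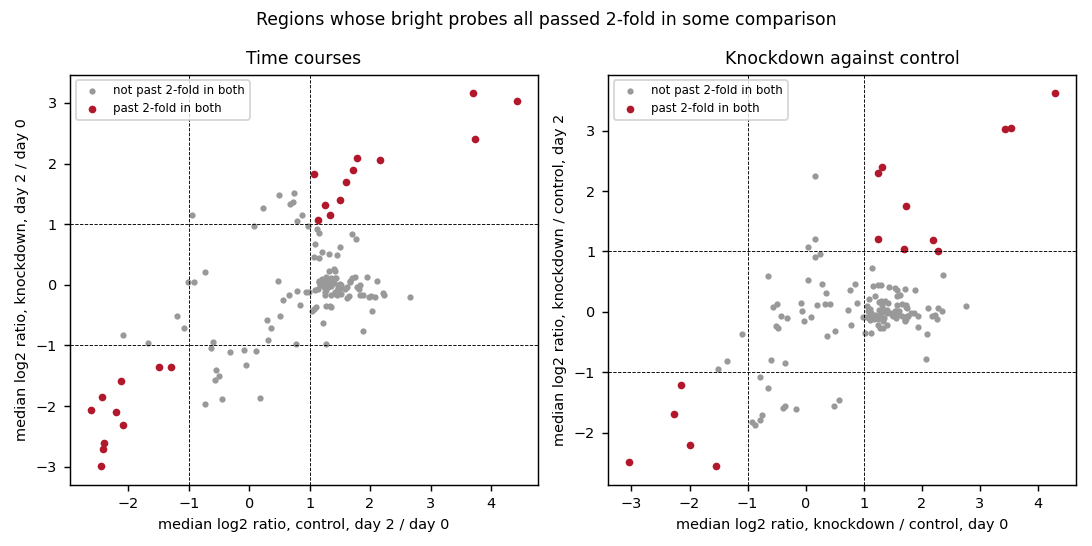
Median log2 ratio of each interval whose kept probes all passed 2-fold in at least 1 comparison: control against knockdown time course (left), and knockdown over control at day 0 against day 2 (right); red marks a median past 2-fold in both. A cluster of intervals is higher on the horizontal axis alone, where the untreated control array enters, and the chromosome 18 interval is at the top right of the right panel, at 4.30 and 3.62.

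The time courses of control and knockdown cells were at least 2-fold apart in 989 of the 3100 kept probes that were well above background on all 4 arrays. The knockdown time course was the higher one in 65 of them and the lower one in 924, against 2.54% and 23.3% of all probes and 2.51% and 8.78% of the bright probes without a position name. All kept probes agreed in 3 intervals with a higher and 78 with a lower knockdown time course. The 3 intervals were chr10:120058696-120076196, chr6:57583950-57624216 and chr3:146645022-146646977, by a median of 4.25-fold, 2.38-fold and 2.12-fold. The widest median gap in the other direction, 7.27-fold, was at chr16:29804864-29815614 on the forward strand. Its 2 kept probes read 175 and 36.2 in untreated control, 533 and 232 in untreated knockdown, 366 and 417 in induced control and 277 and 148 in induced knockdown cells. At chr7:3309825-3331151 on the reverse strand the kept probes read 82.2 and 50.4 in untreated control and 491 and 421 in untreated knockdown cells, a 6.29-fold median gap between the time courses. The untreated control array had the lowest reading at both intervals.

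Kept probes with the highest mean level showed little difference between arrays. One was the probe of chr11:22681800-22707775 on the reverse strand, at 273000 and 335732 in untreated and 320078 and 298668 in induced control and knockdown cells. Across the 8 probes with the highest mean level no fold in any comparison reached 2. The largest was 1.95-fold, in knockdown induction at chr19:5801802-5802597 on the reverse strand, where the probe read 251000 and 222273 before and 258086 and 287094 after induction. No kept probe was saturated.

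Many intervals were probed on both strands. Of 1067 such intervals, 280 had kept probes on both strands and 526 on one. Across the 280 pairs the log2 ratios of the strands correlated with Pearson's r between 0.004 and 0.11 over the 4 comparisons, as a description across intervals of the same arrays. The medians of both strands passed 2-fold the same way in 40 pairs for control induction and 38 for untreated knockdown. They passed it in opposite directions in 6 and 5 pairs, and 1 strand alone passed it in 131 and 123. Within the slide no pair passed it on both strands, of 277 compared for knockdown induction and 278 for induced knockdown. There 1 strand alone passed it in 26 and 8 pairs. Of all kept probes 31.9% and 28.9% were higher across slides, against 4.73% and 2.02% within the slide. How many pairs would pass together at such shares was not computed, so nothing about strands is read from these counts.

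The probes with the lowest ratios of untreated knockdown to untreated control cells were each bright on the untreated control array alone. In chr17:88466300-88495175 on the forward strand 1 probe read 1080 in untreated control, 17.2 in untreated knockdown, 18.4 in induced control and 13.9 in induced knockdown cells, which is 65.5-fold lower with knockdown before induction. The next brightest probe of that interval read 410 and 558 in untreated control and knockdown cells. In chr12:20240893-20435318 on the reverse strand 1 probe read 1270 in untreated control cells and 13.9, 7.79 and 13.1 on the other arrays, none of them well above background, so that the difference is at least 84.6-fold. The other 2 probes of the interval read at most 15.4 on any array. Of the 8 lowest measured ratios of this comparison 7 had another probe in the interval, as had the 3 lowest bounds. None of these other probes was past 2-fold the same way. All 8 highest measured ratios had another probe, and in 7 it was past 2-fold the same way. For control induction it was in 2 of 7 with another probe among the 8 lowest and 7 of 7 among the 8 highest. Over all called probes with another measured probe, it was in 31 of 83 lower and 522 of 731 higher ones in untreated knockdown. For control induction these were 48 of 113 and 609 of 813. Of all kept probes 28.9% were higher and 3.07% lower in untreated knockdown, and 31.9% and 4.19% in control induction. Another probe was thus more often higher than lower to begin with. How often it would pass the same way at such shares was not computed, and no such count was made for other probes.

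**Figure D5:**
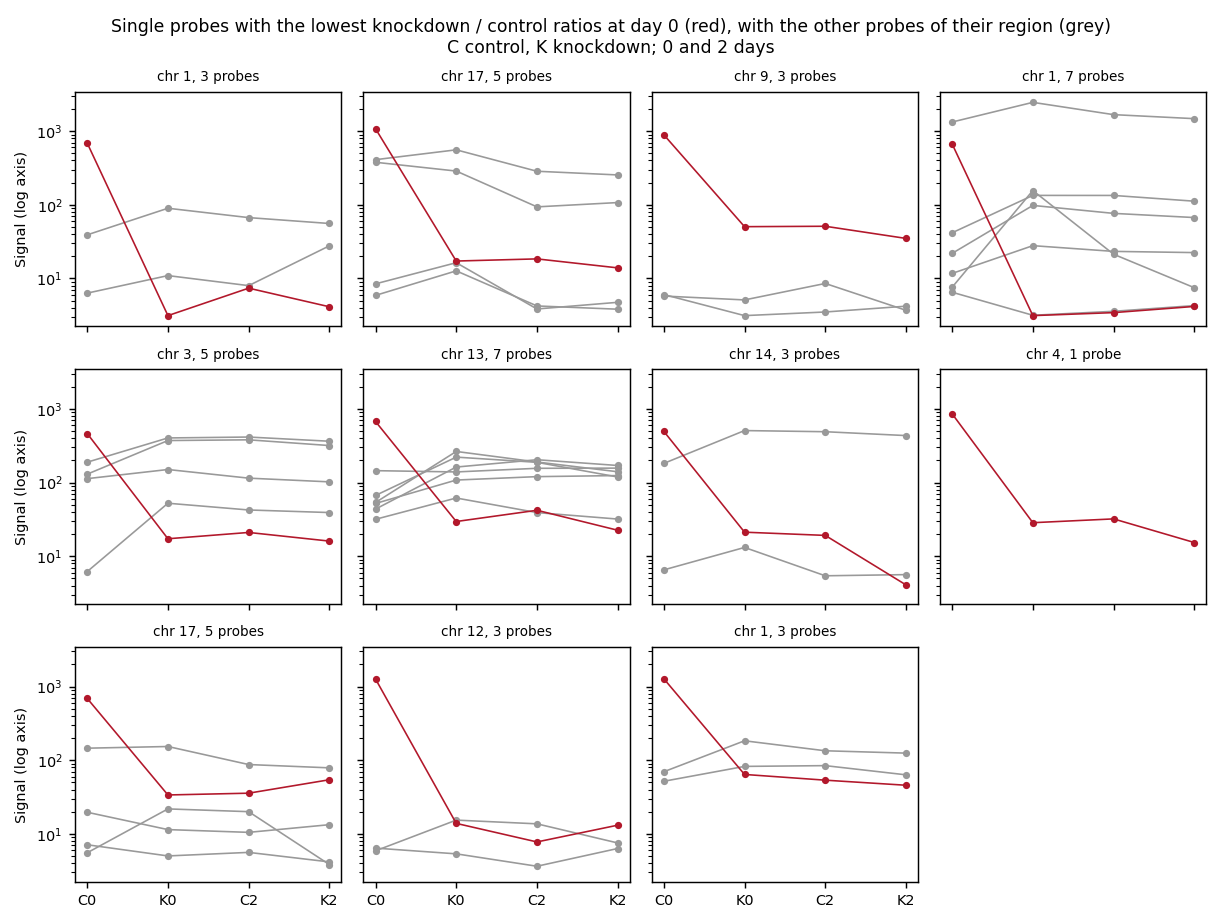
Processed signal (vertical axis, log scale) on the 4 arrays of the 11 probes with the lowest ratios of knockdown to control cells at day 0 (red), each with the other unmarked probes of its interval (grey); C is control, K knockdown, 0 and 2 the day. Each red probe is high on the control array at day 0 and low on the other 3, as on chromosome 17 in the second panel (1080, then 17.2, 18.4 and 13.9), and no grey probe that was well above background is 2-fold lower with knockdown at day 0.

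Within the slide most of the extreme ratios were shared by another probe. For induced knockdown against induced control cells, another probe was past 2-fold the same way for 7 of the 8 highest measured ratios. Of the 8 lowest, 7 had another probe and it was so in 5. In knockdown induction 7 of the 8 highest had another probe and it was so in 6, and for the 8 lowest it was so in 6. Single probes stood alone here too. One probe of chr13:53100475-53113850 on the reverse strand read 769 in induced knockdown cells and 13.0 to 58.2 on the other 3 arrays, 22.2-fold higher than in induced control cells. One probe of chr8:19692532-19694101 on the reverse strand read 450.2 in induced control cells and at most 26.0 on the other 3 arrays.

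Long noncoding RNA genes that have a gene symbol served for comparison. Whether their probes and the position-named probes read any of the same RNAs was not checked. Of a list of 44, 27 had a probe on the array and 21 read over 400. In control induction 8 of 25 compared were at least 2-fold higher and 0 lower, and in knockdown induction 4 of 27 were higher and 3 lower. Over all non-control probes 26.7% were higher and 5.91% lower in the first of these and 4.34% and 6.09% in the second. With knockdown 5 of 27 were higher and 2 lower before induction, against 23.6% and 3.77% of all probes, and 1 of 26 was higher and 3 lower after it, against 2.24% and 3.03%. Their median log2 ratios were 0.64 and 0.31 for the time courses of control and knockdown cells and 0.00 and -0.04 for knockdown before and after induction.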

How the data were processed

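Total RNA from each of the 4 samples was labelled with Cy3 and hybridised to 1 Agilent mouse array of design 028005. The deposited files are scanner output, written by Agilent's Feature Extraction software (version 10.7.3.1) and naming build mm9, per the file headers. The authors deposited processed signal intensities with background subtracted by that software; its multiplicative detrending was applied on 3 arrays but not to untreated knockdown, and the untreated control values carry 3 significant digits. The kept probes and gene lists were chosen with earlier results of these data known. From the deposited intensities, spots marked as outliers were left out, log2 signals were centred on each array's 75th percentile over non-control spots, and repeat spots were averaged. Ratios were called at 2-fold. A ratio with only 1 array well above background is a bound. On the other array the probe's own level or that array's lowest level well above background was used, whichever was higher. A bound that changed sign was set to no difference. With 1 array per group no p-value was computed, and the number of arrays limits the precision.

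Named members were, per comparison and direction, the 8 largest measured ratios, the 3 largest bounds and the 6 agreeing intervals with the largest median; the 6 largest time-course differences each way; the 8 highest mean levels; and up to 8 members past 2-fold in both comparisons that share no array. Gene symbols came from RefSeq accessions. The calling was tested on simulated data, with planted changes past 2-fold and the spot error of probes as bright as the kept ones. That simulation had no added error for dim spots, no bounds and no slide difference. It cannot tell how the calling behaves under those. The planned comparison with the nearest gene probe was not made, since gene probes have no positions in the files used here. Alternatives used limma 3.58.1 for quantile and cyclic loess normalisation and normexp background correction, and also covered the percentile's spots, detrending, the signal threshold, outlier marks, the background mark and 1 value per interval.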

Additional observations from a re-analysis of the deposited data

Results flagged for a closer look

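For the probes below, 2 effects under the same contrast ran in opposite directions, each past 2-fold, and none of these differences was tested, since each group had 1 array. In chr17:6265275-6362150 on the reverse strand 1 probe had a log2 ratio of -3.91 for control induction and 1.28 for knockdown induction, and its signal was 692 in untreated control and at most 54.4 on the other 3 arrays. One probe of chr10:120058696-120076196 had -1.15 and 1.27, in the order control and knockdown induction. Ratios of the other sign were 1.43 and -1.60 at chr7:3309825-3331151, 1.63 and -2.60 at chr9:96670035-96682896 on the forward strand, and 1.26 and -2.03 at chr3:127039311-127201919 on the reverse strand. At chr9:53613193-53613871 on the forward strand they were 1.17, a bound, and -4.16, with 1102 in untreated knockdown and at most 48.6 on the other arrays.

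For 2 probes knockdown against control cells had opposite directions before and after induction. At chr13:28918991-28919231 on the forward strand the log2 ratios were 2.40 and -1.28, with a control induction of 3.45. At chr16:29804864-29815614 they were 2.61 and -1.33, with a control induction of 3.89. In all, 13 kept probes were past 2-fold in opposite directions in one of these pairs of comparisons. The same count was not made for all probes or for the bright probes without a position name. Whether it is particular to the kept probes was therefore not tested. The slide of the untreated control array enters one side of each pair, and slide and group cannot be told apart there.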

How the results depend on the processing

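No paired analysis was possible because each group had 1 array. Of 110 counts under other settings, 76 stayed within 1.5 times the reported one. Of 474 ratios of named probes under other settings, all kept their sign and 469 stayed past 2-fold. Most of these probes had been named for the size of their ratios in the same data. That they stayed past 2-fold therefore does not measure how stable the other kept probes are. The counts that moved further are given as higher and lower probes; the cause was not tested unless the setting changes how many probes or intervals are counted. Quantile normalisation gave 503 higher in control induction, 446 higher in untreated knockdown, and 115 and 462 for the difference between the time courses. Cyclic loess gave 474 and 198, 453 and 153, and 133 and 498 for the same comparisons. Without detrending they were 1524 higher, 1434 higher, and 32 and 1536. A signal over 800 left 358 and 77, 319 and 44, and 30 and 326. A signal over 200 gave 2233 and 229, 2050 and 186, and 119 and 2013, with 229 higher in knockdown induction and 98 higher in induced knockdown. With 1 value per interval there were 83 lower in control induction, 60 and 59 in knockdown induction, 26 and 37 in induced knockdown, and 34 higher in the difference. The median log2 ratio of all spots was 0.33 for control induction and 0.23 for untreated knockdown as scaled, and 0.03 and -0.02 after quantile normalisation. The 85 and 83 intervals with agreeing higher probes became 26 and 24 with quantile normalisation, of which 25 and 23 were among the original ones, 23 and 28 with cyclic loess, and 185 and 175 without detrending. For induced knockdown, normexp gave 7 higher and 10 lower intervals, against 8 and 15. Of 612 interval medians under 6 settings of the level, 43 moved by over 1.5 times, 16 with cyclic loess, 15 with normexp and 11 with quantile normalisation. These are 102 medians of selected intervals under each setting. They cover only 15 of the 85 intervals higher in control induction and 12 of the 83 higher in untreated knockdown. The stability of the rest is not measured by this count. Signal over background limits the dim probes: on the untreated control array 56.0% of position-named spots were well above it.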
